A study of Homo sapiens with 6 samples.

Results

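The genes described here were 42 named genes of the amino acid response, taken as a list of gene symbols, which was drawn up with earlier results of these data known: 8 enzymes of amino acid synthesis, 8 amino acid transporters, 12 cytosolic aminoacyl-tRNA synthetases, 11 transcription factors and regulators of the stress response, and 3 secreted or surface proteins. All 42 had a row among the 39282 genes of each library, and 41 of the 42 passed the filter on low counts, which kept 16855 genes. The one that did not was FGF21, a secreted metabolic hormone, which had a count of 0 in all 6 libraries.

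ATF4 is a transcription factor that is made when translation initiation slows. Kinases that sense a lack of amino acids (GCN2, the product of EIF2AK4) or unfolded protein in the endoplasmic reticulum (PERK, the product of EIF2AK3) phosphorylate the initiation factor eIF2, which lowers general translation while the ATF4 message is translated more. ATF4 then turns on genes that import, make and charge amino acids, and a group of stress factors that includes DDIT3 (CHOP) and TRIB3. Because this control acts largely on translation, the level of ATF4 RNA is not a measure of ATF4 protein.

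The libraries came from PA-1 cells, labelled as ovarian teratocarcinoma, and from TOV21G cells, labelled as clear cell carcinoma of the ovary. In each line 1 library carried a lentiviral scramble hairpin (sh-Ctrl, TRC2-Scramble_ASN0003), called the control, and 1 library each carried the lentiviral hairpins sh-MEX3A#1 (TRCN230492) and sh-MEX3A#2 (TRCN230494), called hairpin 1 and hairpin 2, against the RNA-binding ubiquitin ligase MEX3A. All libraries were stranded and made from poly(A)-selected RNA. PA-1 was grown in EMEM and TOV21G in a mixture of MCDB 105 and Medium 199, both with serum, so growth medium and cell line cannot be told apart. The design text calls the depleted cells clones, and no label states separate cultures. The p-values below therefore measure only the spread between the hairpins of a line, which are different reagents, pooled over both lines. Both hairpins of a line share its single control, so no spread between controls was measured.

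MEX3A RNA was at 30.0% (hairpin 1) and 40.0% (hairpin 2) of the control in PA-1, and at 51.2% and 42.3% in TOV21G. The edgeR adjusted p of MEX3A was 1 in PA-1 and 0.417 in TOV21G, and DESeq2 put it at 0.0478 and 0.164. Libraries held 14654628 to 19495162 counts, and 3 counts corresponded to 0.153 to 0.202 CPM per library (counts scaled to a common library total after TMM adjustment), which covers counting error only. All 8 markers of pluripotent and teratocarcinoma cells reached 1 CPM in PA-1 and 4 of 8 did so in TOV21G, while 5 of 6 clear cell carcinoma markers reached it in TOV21G and 3 of 6 in PA-1. The labels give ovarian surface epithelium as the source, and 5 of 10 of its markers reached 1 CPM in PA-1 and 7 of 10 in TOV21G. None of 6 blood cell markers did so in either line. In TOV21G the hairpins differed more from each other than in PA-1. The standard deviation over all genes of hairpin 2 minus hairpin 1 was 0.943 in TOV21G and 0.527 in PA-1 on the log2 CPM scale. A single estimate of the spread served both lines, so the p-values in PA-1 also carried the larger spread of TOV21G.

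ATF4 binds, with C/EBP partners, a composite element often written TGATGNAA. The letters were searched on both strands of RefSeq promoter windows (GRCh38.p14, 250 bases before to 50 after the annotated start). Windows were found for 34 of the 42 genes, and 11 of these (32.4%) held a match. The share was 3.67% over all 27305 windows and 1.77% over the 12568 windows whose gene was tested. The members were listed as ATF4 targets and tRNA synthetases, so a larger share followed in part from the choice of list. Matches lay in 6 of 10 synthetase windows (AARS1, CARS1, IARS1, MARS1, NARS1 and TARS1), and in those of ASNS, SLC7A1, SLC38A1, ATF3 and FGF21. Another letter string, CCAAT, was in 47.1% of the members' windows, 35.7% of all windows and 36.4% of those whose gene was tested. Its matches did not overlap the TGATGNAA matches in any member's window. The cyclic AMP element TGACGTCA was in 2.94% of the members' windows, 1.98% of all windows and 3.06% of those whose gene was tested. The 6 stretches printed here, 30 bases each with the match in capitals, show the element in ASNS, where it was classically studied, in the synthetases that hold it most often, and in ATF3, the stress factor that differed most in TOV21G.
ASNS: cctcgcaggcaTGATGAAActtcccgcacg
AARS1: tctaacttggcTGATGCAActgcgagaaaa
IARS1: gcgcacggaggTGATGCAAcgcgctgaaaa
MARS1: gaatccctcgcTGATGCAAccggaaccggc
TARS1: gctggaccagcTGATGCAAtcgaaaggcgc
ATF3: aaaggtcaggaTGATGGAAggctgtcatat
The ASNS stretch is the minus strand of chr7:97872458-97872487, with the match 68 to 61 bases before the start. The AARS1 stretch is the plus strand of chr16:70289675-70289704 and that of IARS1 the plus strand of chr9:92293692-92293721. MARS1 is shown on the minus strand of chr12:57488053-57488082, TARS1 on the minus strand of chr5:33440956-33440985 and ATF3 on the plus strand of chr1:212565205-212565234. A match is a run of letters and not a measured binding site. The 4 synthetases shown all read TGATGCAA, whereas ASNS read TGATGAAA and ATF3 read TGATGGAA.

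The medians of members with and without the match were close. The median log2 difference from control of the 10 with a match was -0.01 with hairpin 1 and 0.06 with hairpin 2 in PA-1, and 0.04 and -0.26 in TOV21G. For the 23 without it the medians were -0.03 and -0.07 in PA-1 and 0.07 and -0.22 in TOV21G.

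The first comparison asked how these genes stood after MEX3A depletion in PA-1. Most differed little from the control. Of 41 measured members, 10 were higher and 17 lower with both hairpins, and 14 went either way. Over all genes 33.8% were higher and 34% lower with both. At least 1.5-fold with both hairpins were VLDLR, higher, and SLC7A3, lower. The edgeR quasi-likelihood test called 0 members at an adjusted p under 0.05, and 0% of all 16855 genes. At an unadjusted p under 0.05 edgeR had 434 genes and 1 member, VLDLR, and DESeq2 called 36 genes and 0 members.

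Counted by hairpin, the share of members at least 1.5-fold from control in PA-1 was below the share over all genes. With hairpin 1, 1 of 41 members was higher, beside 11.8% of all genes, and 2 were lower, beside 6.28%. With hairpin 2, 2 were higher, beside 13.3% of all genes, and 2 lower, beside 7.97%. For both hairpins together, the 1 member higher stood beside 7.30% of all genes and the 1 lower beside 2.74%. The hairpins also lay close to each other, with a median absolute distance of 0.15 over the members and 0.21 over all genes on the log2 scale.

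The synthesis enzymes of PA-1 lay slightly below the control, with a median log2 difference of -0.30 with hairpin 1 and -0.09 with hairpin 2, where the median over all genes was 0. ASNS makes asparagine from aspartate and glutamine. It stood at 147 CPM in the PA-1 control, 123 CPM with hairpin 1 and 152 CPM with hairpin 2. In TOV21G it stood at 46.5 CPM in the control, 62.0 CPM with hairpin 1 and 20.0 CPM with hairpin 2. The control lay between the hairpins in both lines, and hairpin 2 was the highest PA-1 library and the lowest TOV21G library. The fit gave ASNS a log2 fold change of -0.10 (SE 0.65) in PA-1 and -0.18 (SE 0.65) in TOV21G, with edgeR adjusted p values of 1 and 0.964. None of the 8 enzymes reached 1.5-fold with either hairpin in PA-1, and 6 of 8 were lower with both, beside 34% of all genes. PHGDH, the first enzyme of serine synthesis, was at 80.1% and 77.8% of the PA-1 control, and the mitochondrial folate enzymes SHMT2 and MTHFD2 at 82.6% and 78.4% with hairpin 1 and at 92.1% and 95.2% with hairpin 2. PYCR1, the last step of proline synthesis, was at 72.6% and 92.7%, and ALDH18A1, which starts that route, at 102% and 107%. PSPH was at 88.8% and 96.4%, so that hairpin 2 lay nearer to the control than hairpin 1 for 4 of these 6 enzymes.

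Transporters in PA-1 had medians of -0.28 with hairpin 1 and -0.12 with hairpin 2. SLC7A3, a carrier of cationic amino acids, was at 29.4 CPM in the PA-1 control, 16.5 CPM with hairpin 1 and 17.9 CPM with hairpin 2. Both hairpins lay at about the same level below the control, a log2 fold change of -0.77 (SE 0.32) with an unadjusted edgeR p of 0.0677 and an adjusted p of 1. The other carriers of cationic and neutral amino acids were closer to the control. SLC7A5, the light chain of the large neutral amino acid exchanger, was at 109% and 115% of the control. SLC7A1, a second cationic carrier, was at 79.2% and 92.7%. SLC1A5, a carrier of glutamine and other neutral amino acids, was at 73.8% and 91.0%. SLC38A2 was at 85.4% and 119%, and SLC1A4 at 116% and 85.4%, so that the hairpins lay on opposite sides of the control for both. SLC38A1 was at 99.3% and 105%.

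The tRNA synthetases, which join each amino acid to its tRNA, stayed near the control in PA-1. Their median difference was 0.05 with each hairpin, and the farthest of the 24 values was 0.38, that of WARS1, the tryptophan enzyme, with hairpin 2. In percent of control the 12 genes lay between 84.3%, SARS1 with hairpin 1, and 130%, WARS1 with hairpin 2. The edges of that range belonged to the serine and tryptophan enzymes, and CARS1, EPRS1, IARS1, LARS1 and NARS1 stayed within 10% of the control with both hairpins.

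Stress factors had medians near the control in PA-1, -0.05 and -0.08, but single values lay farther out than those of the synthetases. With hairpin 1 they ran from -1.44 (NUPR1, of few counts) to 0.42 (ATF3). With hairpin 2 the range was -0.61 (JDP2) to 0.69 (PPP1R15A). ATF4 itself was at 277 CPM in the PA-1 control, 262 CPM with hairpin 1 and 250 CPM with hairpin 2, and at 249 CPM, 250 CPM and 166 CPM in TOV21G. Only the TOV21G hairpin 2 library lay clearly lower. The log2 fold change of ATF4 was -0.11 (SE 0.32) in PA-1 and -0.26 (SE 0.32) in TOV21G, with edgeR adjusted p values of 1 and 0.807.

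DDIT3, the pro-death factor CHOP, was at 7.11 CPM in the PA-1 control, 6.49 CPM with hairpin 1 and 7.12 CPM with hairpin 2. In TOV21G it was at 18.3 CPM, 15.4 CPM and 17.6 CPM in the same order. Hairpins and control lay close together in each line, with log2 fold changes of -0.06 (SE 0.30) and -0.14 (SE 0.29). In RefSeq DDIT3 and MARS1 share bases, so their counts are less certain than others.

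TRIB3, a pseudokinase that dampens ATF4 and AKT signalling, was at 13.7 CPM, 10.4 CPM and 13.0 CPM in the control, hairpin 1 and hairpin 2 of PA-1. In TOV21G it was at 30.6 CPM, 23.7 CPM and 41.0 CPM. Hairpins 1 and 2 lay on opposite sides of the TOV21G control, and the edgeR adjusted p was 1 in PA-1 and 0.982 in TOV21G.

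Among the secreted and surface proteins, VLDLR differed most in PA-1. It is the very low density lipoprotein receptor (chromosome 9, bases 2621787 to 2660056). VLDLR was at 57.8 CPM in the PA-1 control, 110 CPM with hairpin 1 and 154 CPM with hairpin 2. In TOV21G the control was instead the highest library, with 191 CPM in the control, 95.01 CPM with hairpin 1 and 140 CPM with hairpin 2. Both hairpins were above the control in PA-1 and below it in TOV21G. In PA-1 the fit gave a log2 fold change of 1.19 (SE 0.38, edgeR unadjusted p = 0.0256, adjusted p = 1), and in TOV21G one of -0.70 (SE 0.35, adjusted p = 0.595). An antisense gene, VLDLR-AS1, shares bases with it, and the strand setting of the counting is not given in the sources used here. STC2, a secreted glycoprotein of the same group, was at 128% and 149% of the control in PA-1 and at 105% and 85.6% in TOV21G.

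**Figure D1:**
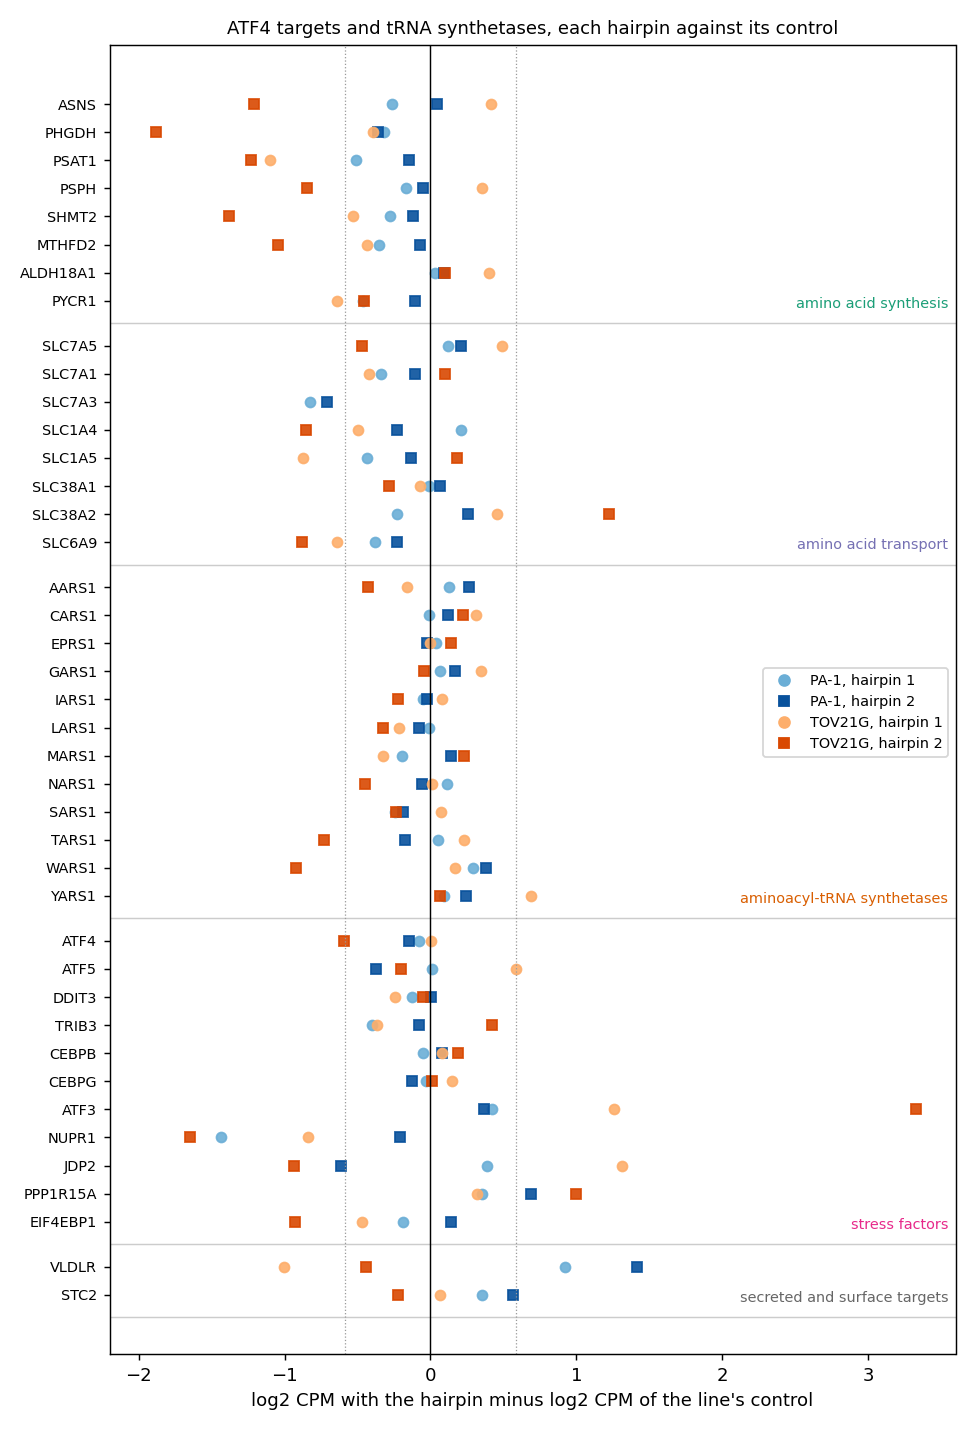
Each row is 1 member that passed the filter and each point the log2 CPM of a hairpin library minus that of its line's control, circles for hairpin 1, squares for hairpin 2, blue for PA-1 and orange for TOV21G, with dotted lines at 1.5-fold. The blue points of the 12 synthetases stay within 0.38 of the control, while TOV21G hairpin 2 lies at least 1.5-fold below the control for 14 of 41 members. SLC7A3 has no TOV21G points because its count there was 0.

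Depletion was then examined in TOV21G. With both hairpins 8 of 41 members were higher and 14 lower, beside 31.3% and 31.9% of all genes. Here PSAT1, an enzyme of serine synthesis, stood lower with both hairpins and ATF3, a stress factor, stood higher. At least 1.5-fold lower with both hairpins were PSAT1, SLC6A9 and NUPR1, 3 of 41 members beside 8.43% of all genes. ATF3 was at least 1.5-fold higher with both, 1 of 41 beside 9.47%. The edgeR test called 0 members and 0% of all genes, with 1612 genes and 2 members (PSAT1 and ATF3) at an unadjusted p under 0.05. DESeq2 called 226 genes, 1.34% of all, and 1 of 41 members, PSAT1. Without TOV21G hairpin 1, edgeR called 1489 genes and 7 members in TOV21G, but hairpin 2 was then a lone library assumed to vary like the PA-1 hairpins. Those 7 were ASNS (-1.22), PHGDH (-1.89), PSAT1 (-1.24), SHMT2 (-1.39), MTHFD2 (-1.05) and WARS1 (-0.92), lower, and ATF3 (3.39), higher, as log2 fold changes.

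Hairpin 2 held the larger differences. With hairpin 1, 4 of 41 members were at least 1.5-fold higher, beside 17.8% of all genes, and 6 lower, beside 17.0%. With hairpin 2, 3 were higher, beside 22.5%, and 14 lower, beside 21.6%. The median over the members was 0.00 with hairpin 1 and -0.29 with hairpin 2, and 28 of 41 members were lower with hairpin 2 than with hairpin 1. The share of all genes lower with hairpin 2 than with hairpin 1 was not counted, so the 28 are not read as an excess. In bulk RNA, fewer cells of a kind and less RNA per cell cannot be told apart.

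PSAT1 makes phosphoserine, the middle step of serine synthesis (chromosome 9, bases 78297125 to 78330093). It was at 309 CPM in the TOV21G control, 144 CPM with hairpin 1 and 131 CPM with hairpin 2. The PA-1 libraries had 457 CPM in the control, 322 CPM with hairpin 1 and 413 CPM with hairpin 2. In both lines the control was the highest library, and in TOV21G the hairpins lay close to each other at 46.5% and 42.5% of it. The log2 fold change in TOV21G was -1.17 (SE 0.26), with an unadjusted edgeR p of 0.00588, an edgeR adjusted p of 0.385 and a DESeq2 adjusted p of 0.0428. In RefSeq 4 pseudogenes are named after PSAT1, and the counting could split reads with them. The same limit holds for ATF4 (4 pseudogenes), ASNS (5), MTHFD2 (7), SLC7A5 (2), EIF4EBP1 (2) and PSPH (1).

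Other enzymes of the serine and folate route were singled out after their values were seen. PHGDH, the first step of serine synthesis, was at 45.1 CPM, 34.4 CPM and 12.2 CPM in the control, hairpin 1 and hairpin 2 of TOV21G. SHMT2, which moves a carbon from serine to folate in mitochondria, was at 120 CPM, 83.1 CPM and 46.0 CPM. MTHFD2, the next mitochondrial folate enzyme, was at 154 CPM, 114 CPM and 74.2 CPM. All 3 had the order control, hairpin 1, hairpin 2 from high to low, and none passed the edgeR test (adjusted p = 0.64, 0.549 and 0.571). PSPH, the last step of serine synthesis, did not share it, with 22.5 CPM, 28.9 CPM and 12.5 CPM.

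Of the proline enzymes, PYCR1 was at 64.1% and 73.0% of the TOV21G control, and ALDH18A1 at 132% and 107%. As a group, 5 of 8 synthesis enzymes were lower and 1 higher with both hairpins, beside 31.9% and 31.3% of all genes. The group's median was -0.41 with hairpin 1 and -1.13 with hairpin 2, and 2 and 6 of the 8 were at least 1.5-fold lower, beside 17.0% and 21.6% of all genes. Their summed TPM (transcript abundance, a level per length) was 870 in the TOV21G control and 731 and 451 with hairpins 1 and 2, and in PA-1 it was 1711, 1421 and 1547.

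**Figure D2:**
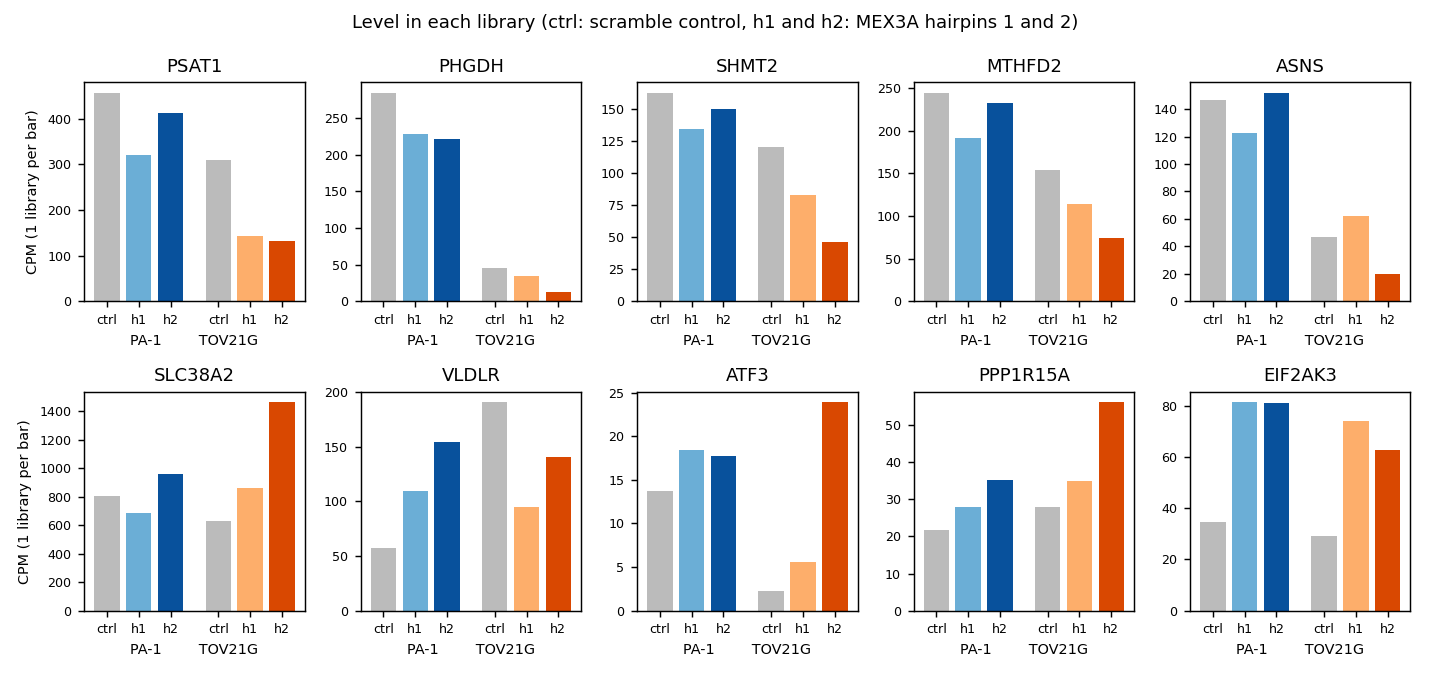
Bars give the CPM of 10 genes in the 6 libraries, 1 library per bar, with the control in grey and axes that start at 0 and differ between panels. PSAT1, PHGDH, SHMT2 and MTHFD2 are highest in the control of each line. VLDLR is lowest in the PA-1 control and highest in the TOV21G control, and EIF2AK3 is higher with each hairpin in each line.

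Transport genes went different ways in TOV21G. SLC6A9, the glycine transporter GlyT1, was at 4.81 CPM in the TOV21G control, 3.03 CPM with hairpin 1 and 2.55 CPM with hairpin 2, and at 17.2 CPM, 13.2 CPM and 14.6 CPM in PA-1. Both hairpins lay below the control in both lines, and the TOV21G log2 fold change was -0.78 (SE 0.33, edgeR adjusted p = 0.545). SLC38A2, the amino acid-regulated carrier SNAT2, went the other way in TOV21G with 628 CPM in the control, 863 CPM with hairpin 1 and 1465 CPM with hairpin 2. It was the only transporter higher with both hairpins there, and its edgeR adjusted p was 0.573. SLC1A5 was at 54.5% of the control with hairpin 1 and 113% with hairpin 2, and SLC7A5 at 140% and 72.1%, so that the hairpins disagreed in direction for both. SLC1A4, a carrier of neutral amino acids including serine, was at 70.7% and 54.8% of the control. SLC7A1 was at 74.8% and 107%, and SLC38A1, the carrier SNAT1, at 94.9% and 82.0%. SLC7A3 had a count of 0 in all 3 TOV21G libraries and enters the group medians of -0.25 and -0.14 with a difference of 0. Over the 7 transporters with counts there, the medians were -0.42 with hairpin 1 and -0.29 with hairpin 2.

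Synthetases of TOV21G had a median of 0.08 with hairpin 1 and -0.23 with hairpin 2. With both hairpins, 2 of 12 were higher (CARS1 and YARS1) and 2 lower (AARS1 and LARS1). WARS1 and TARS1 were at least 1.5-fold lower with hairpin 2, and neither was lower with hairpin 1. WARS1 was at 485 CPM, 546 CPM and 256 CPM in the control, hairpin 1 and hairpin 2. TARS1, the threonine enzyme, was at 213 CPM, 250 CPM and 129 CPM in the same order. YARS1, the tyrosine enzyme, was at 162% of the control with hairpin 1 and 105% with hairpin 2. The remaining enzymes, for cysteine (CARS1), glutamate and proline (EPRS1), glycine (GARS1), isoleucine (IARS1), leucine (LARS1), methionine (MARS1), asparagine (NARS1), serine (SARS1) and alanine (AARS1), stayed between 73.3% and 127% of the control. The summed synthetase TPM was 1813, 2223 and 1436 in TOV21G and 2159, 2301 and 2206 in PA-1.

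Among the stress factors of TOV21G, ATF3 lay farthest from the control. ATF3, an early stress factor (chromosome 1, bases 212565407 to 212620777), was at 2.27 CPM in the TOV21G control, 5.60 CPM with hairpin 1 and 23.9 CPM with hairpin 2. In PA-1 it was at 13.7 CPM, 18.4 CPM and 17.7 CPM. Both hairpins were above the control in each line, and TOV21G hairpin 2 stood far above the other TOV21G libraries. The TOV21G log2 fold change was 2.69 (SE 0.96), with an unadjusted edgeR p of 0.0371, an edgeR adjusted p of 0.493 and a DESeq2 adjusted p of 0.0723. PPP1R15A, the GADD34 subunit that reverses eIF2 phosphorylation, was at 28.0 CPM, 34.9 CPM and 56.2 CPM in TOV21G and at 21.8 CPM, 27.9 CPM and 35.2 CPM in PA-1. It shared the order control, hairpin 1, hairpin 2 from low to high in both lines, and edgeR gave an adjusted p of 0.61 in TOV21G. Like SLC38A2, it was singled out after its values were seen.

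NUPR1, a small stress-induced nuclear protein, was at 3.64 CPM, 1.98 CPM and 1.07 CPM in the control, hairpin 1 and hairpin 2 of TOV21G, which were 56, 30 and 16 counts. In PA-1 it was at 1.196 CPM, 0.364 CPM and 1.02 CPM, which were 19, 6 and 20 counts. The TOV21G control lay above both hairpins, but few counts stood behind these values and edgeR gave an adjusted p of 0.64. EIF4EBP1, the translation repressor 4E-BP1, was at 71.9% and 52.2% of the TOV21G control and at 87.9% and 110% in PA-1. JDP2, an AP-1 family repressor, was at 249% with hairpin 1 and 52.0% with hairpin 2 in TOV21G, and at 131% and 65.2% in PA-1, so that the hairpins lay on opposite sides of both controls. ATF5, an ATF4 relative, was at 150% and 86.8% in TOV21G and at 101% and 76.9% in PA-1. CEBPB and CEBPG, partners of ATF4 at its element, stayed between 91.5% and 114% in all 4 comparisons. The group's median was 0.08 with hairpin 1 and -0.05 with hairpin 2.

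Nuclear RNAs differed in the same libraries. NEAT1 was at 119 CPM in the PA-1 control and 270 CPM and 273 CPM with the hairpins, and at 361 CPM, 1133 CPM and 1068 CPM in TOV21G. MALAT1 was at 4315 CPM in the TOV21G control, 9429 CPM with hairpin 1 and 18460 CPM with hairpin 2, and at 910 CPM, 1303 CPM and 1113 CPM in PA-1. Whether they had a part in the members' differences was not tested.

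The third comparison took both lines together and then asked whether the effect of depletion differed between them. For the mean of both effects edgeR called 0 members and 0% of all genes, with 1383 genes and 1 member, PSAT1, at an unadjusted p under 0.05, and DESeq2 called 133 genes and 0 members. PSAT1 had a mean log2 fold change of -0.74 (SE 0.19, edgeR adjusted p = 0.553) and was below the control in 4 of 4 hairpin libraries. Without TOV21G hairpin 1, hairpin 2 was a lone library in TOV21G. In that fit the mean log2 fold changes of PHGDH, SHMT2 and ATF3 were -1.12, -0.79 and 1.89. For the difference between the effects, TOV21G minus PA-1, edgeR called 0 members and 0% of all genes, with 642 genes and 1 member at an unadjusted p under 0.05, and DESeq2 called 19 genes and 0 members. The 1 member was VLDLR, whose effect was lower in TOV21G by a log2 difference of -1.89 (SE 0.52, edgeR unadjusted p = 0.0141, adjusted p = 1). The difference in the PSAT1 effect was -0.85 (SE 0.38, edgeR adjusted p = 1).

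Genes of the same pathway that were not members were read from lists of ATF4 targets, other synthetases, eIF2 machinery and chaperones. EIF2AK3, which encodes PERK, stood out among them. It was at 34.6 CPM in the PA-1 control, 81.4 CPM with hairpin 1 and 80.9 CPM with hairpin 2, and at 29.0 CPM, 74.2 CPM and 62.5 CPM in TOV21G. All 4 hairpin libraries lay above both controls. For PA-1 the fit gave a log2 fold change of 1.23 (SE 0.26), for TOV21G 1.24 (SE 0.26) and for the mean 1.23 (SE 0.19), and the effects differed by 0.01 (SE 0.35). The edgeR adjusted p was 1 in PA-1, 0.382 in TOV21G and 0.547 in the mean, and the DESeq2 adjusted p was 0.171, 0.0312 and 7e-04. The log2 difference of EIF2AK3 from the TOV21G control was 1.35 with hairpin 1 and 1.11 with hairpin 2, each 1 library against 1. Of the 17 genes of eIF2 kinases and eIF2 machinery, 0 passed edgeR in either line, and the group's median was -0.02 and 0.03 in PA-1 and -0.20 and -0.01 in TOV21G.

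Of 28 other ATF4 targets 0 passed edgeR in either line. At an unadjusted edgeR p under 0.05 in TOV21G were 3 of the 28, all higher. Beside them stood 1612 of all 16855 genes (9.56%), 700 higher and 912 lower, so the 3 are not read as an excess. As a list they did not rise there. With both TOV21G hairpins 7 were higher and 13 lower, beside 31.3% and 31.9% of all genes. With TOV21G hairpin 2, 6 were at least 1.5-fold higher and 12 lower, beside 22.5% and 21.6%. The list's median was 0.06 and 0.08 in PA-1 and -0.02 and -0.33 in TOV21G. CHAC1, which breaks down glutathione, was at 6.36 CPM, 7.71 CPM and 7.37 CPM in PA-1 and at 5.26 CPM, 9.96 CPM and 5.04 CPM in TOV21G. SESN2, a leucine sensor upstream of mTORC1 that p53 also induces, was at 26.1 CPM, 27.3 CPM and 36.1 CPM in PA-1 and at 80.3 CPM, 101 CPM and 139 CPM in TOV21G. CHAC1 was highest with hairpin 1 in both lines, and SESN2 was highest with hairpin 2 in both.

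The cystine importer was uneven between lines. SLC7A11, its transport subunit, was at 364 CPM, 419 CPM and 423 CPM in the control, hairpin 1 and hairpin 2 of PA-1, and at 17.8 CPM, 34.9 CPM and 14.4 CPM in TOV21G. SLC3A2, the heavy chain it shares with SLC7A5, was at 129 CPM, 125 CPM and 135 CPM in PA-1 and at 138 CPM, 124 CPM and 87.6 CPM in TOV21G. Neither gene passed edgeR in either line, and SLC7A11 stood lower in every TOV21G library than in any PA-1 library.

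TXNIP, an inhibitor of thioredoxin and of glucose uptake, was at 8.96 CPM in the TOV21G control, 113 CPM with hairpin 1 and 94.4 CPM with hairpin 2. In PA-1 it had counts of 0, 1 and 0. Its TOV21G log2 fold change was 3.53 (SE 0.43), with an edgeR adjusted p of 0.382 and a DESeq2 adjusted p of 2.48e-11. BBC3 (PUMA), a death factor that p53 and CHOP induce, was at 7.92 CPM, 17.6 CPM and 22.6 CPM in TOV21G, with a log2 fold change of 1.34 (SE 0.36) and an edgeR adjusted p of 0.422. Both genes were higher with each TOV21G hairpin than in the control. With TOV21G hairpin 2 alone, 1 library against 1, the log2 difference was 3.38 for TXNIP and 1.5 for BBC3.

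The mitochondrial tRNA synthetases were lower with both hairpins for 15 of 17 genes in TOV21G and for 4 of 17 in PA-1. Over all genes, 5378 of 16855 were lower with both hairpins in TOV21G. The list's median was -0.21 with hairpin 1 and -0.68 with hairpin 2 in TOV21G, and 0.01 and 0.03 in PA-1. None of the 17 passed edgeR in either line. The 11 other cytosolic synthetase genes had medians of 0.02 and 0.04 in PA-1 and -0.16 and -0.23 in TOV21G.

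Chaperone genes driven by ATF6 and XBP1 had a median of 0.59 over 15 genes with TOV21G hairpin 2 and of -0.06 with hairpin 1. With hairpin 2, 8 of the 15 were at least 1.5-fold higher, beside 22.5% of all genes, and MANF was lower at 70.2% of the control. In PA-1 the medians were -0.08 and 0.21. HSPA5 (BiP), chosen after its values were seen, was at 1049 CPM, 1106 CPM and 2563 CPM in the control, hairpin 1 and hairpin 2 of TOV21G. None of the 15 passed edgeR in either line.

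**Figure D3:**
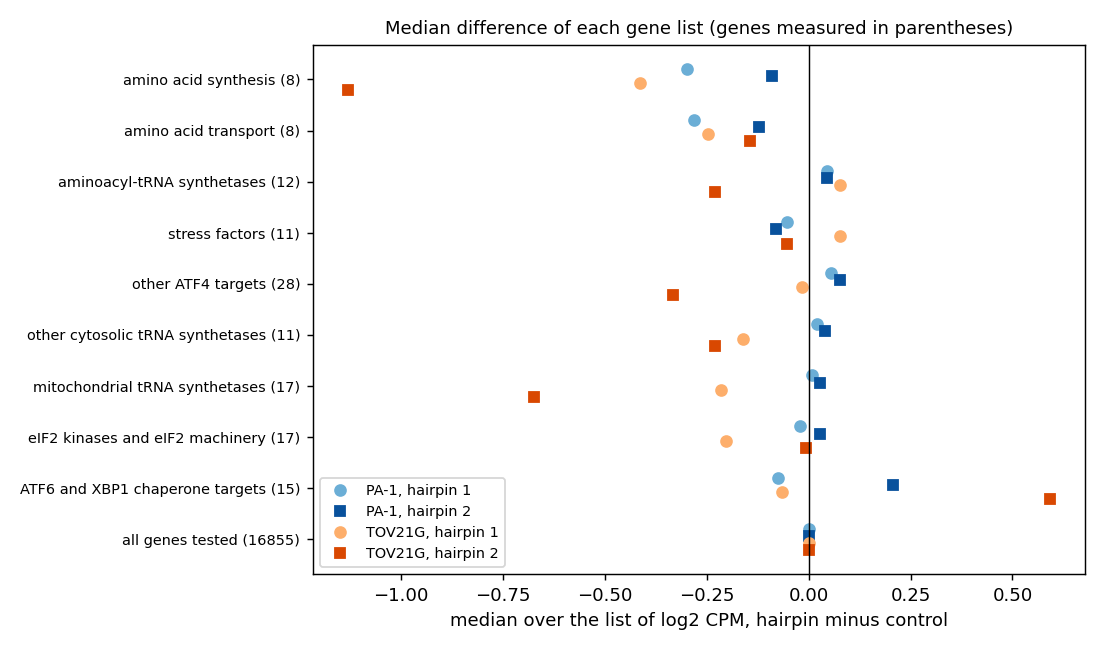
Each point is the median over a gene list of the log2 CPM difference of 1 hairpin from its control, circles for hairpin 1, squares for hairpin 2, blue for PA-1 and orange for TOV21G. The lowest point is amino acid synthesis with TOV21G hairpin 2 at -1.13, followed by mitochondrial tRNA synthetases at -0.68, and the highest point drawn is the chaperone list in the same library at 0.59. The secreted and surface group, with 2 measured genes, is not drawn, and the TOV21G transport medians include SLC7A3 at a difference of 0.

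Levels of the members were then set between the lines over all 6 libraries. The edgeR test called 5 of 41 members higher in TOV21G, beside 20.0% of all genes, and 13 lower, beside 20.6%. Higher were WARS1, ATF5, DDIT3, TRIB3 and STC2. Lower were PHGDH, PSAT1, ASNS, MTHFD2, SLC7A3, SLC6A9, SLC1A4, SLC1A5, AARS1, CARS1, IARS1, LARS1 and CEBPG. SLC7A3 passed the low-count filter only through PA-1, so its call followed from the filter, and without it 12 of 40 members were lower. By group, 4 of 8 synthesis enzymes and 4 of 8 transporters were lower in TOV21G and 0 of either were higher, while 3 of 11 stress factors were higher and 1 lower. Without SLC7A3, 3 of 7 transporters were lower. The number of members called was 5 when PA-1 hairpin 1 was left out, 6 when PA-1 hairpin 2 was, 28 without TOV21G hairpin 1 and 29 without TOV21G hairpin 2, so the total of 18 depended on each hairpin library. Over all genes 6837 were called with every library, 3850 after leaving out hairpin 1 of PA-1, 4002 after leaving out its hairpin 2, and 9946 and 9482 after leaving out hairpins 1 and 2 of TOV21G.

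Past 4-fold with an adjusted p under 0.05 were 4 members, among them SLC7A3, whose call followed from the filter. The share of all genes past 4-fold was not counted. PHGDH lay between 221 and 284 CPM in PA-1 and between 12.2 and 45.1 CPM in TOV21G, a log2 fold change of -2.96 (SE 0.46, edgeR adjusted p = 0.00772). SLC6A9 had a log2 fold change of -2.08 (SE 0.24, edgeR adjusted p = 0.00331). WARS1 lay between 90.1 and 117 CPM in PA-1 and between 256 and 546 CPM in TOV21G, a log2 fold change of 2.12 (SE 0.35, edgeR adjusted p = 0.00915). The ranges of PHGDH, SLC6A9 and WARS1 did not overlap between the lines. These genes were chosen by their difference in these same libraries, so the lack of overlap is no further evidence. SLC7A3 had a mean of 21.3 CPM in PA-1 and a count of 0 in TOV21G, where 3 counts in a library allow at most 0.202 CPM, so it was at least 105.5-fold higher in PA-1.

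Per length, ATF4 was the most abundant member in PA-1, with a mean of 501 TPM and a range over the 3 libraries of 468 to 518 TPM. PSAT1 followed with 455 TPM (384 to 516) and SLC38A2 with 399 TPM (350 to 460), and the ranges of these neighbours overlapped. In TOV21G SLC38A2 came first with 433 TPM (267 to 614), then ATF4 with 380 TPM (270 to 463) and WARS1 with 360 TPM (202 to 492). These 3 ranges overlapped too. The lowest members with counts in TOV21G were SLC6A9 at 2.62 TPM and NUPR1 at 0.887 TPM.

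**Figure D4:**
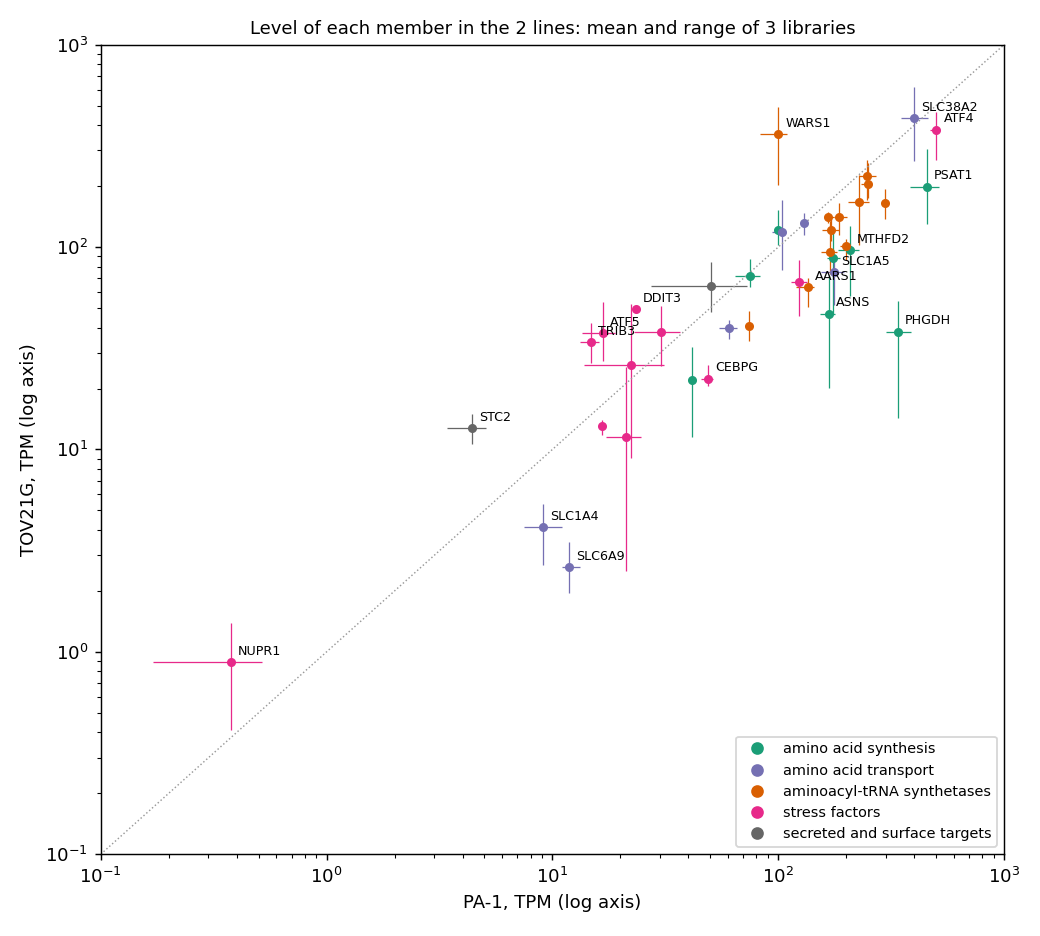
Each point is 1 member, placed at its mean TPM over the 3 libraries in PA-1 (horizontal log axis) and in TOV21G (vertical log axis), with bars from the lowest to the highest library, a dotted line of equal level and names for members at least 2-fold apart and for ATF4, SLC38A2 and PSAT1. WARS1 lies above the line, PHGDH, ASNS and SLC6A9 lie below it, and SLC7A3 and FGF21 are not drawn because a line held a count of 0.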

How the data were processed

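RNA-seq libraries from 6 cell samples (2 lines, each with 1 control and 2 hairpins) were analysed. For each library the authors deposited an RSEM gene table whose headers give the expected count (estimated reads per gene) and TPM. The submitters' processing notes name cutadapt 1.12, STAR 2.5.3a, RSEM 1.2.31, edgeR 3.26.8 and hg38. The strand setting of the counting is not given in the sources used here, so overlapping genes (7 members share bases with another coding gene) and members with named pseudogenes (7) are less certain.

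The deposited expected counts were rounded and analysed in R 4.3.3 with edgeR 4.0.16: TMM scaling, filterByExpr on the 4 groups of line and target (16855 genes kept), and the quasi-likelihood F test with 1 mean per group and 2 residual degrees of freedom, adjusted by Benjamini and Hochberg over all genes at 0.05. The SE was taken as the size of the log2 fold change over the square root of its F statistic. Single hairpins were compared with their control without a test, as log2 CPM with a prior count of 2. The biological coefficient of variation was 0.295, and 0.164 in PA-1 and 0.387 in TOV21G fitted alone. Deposited TPM was used for levels between genes. DESeq2 1.42.0, other scalings, prior counts and filters, log2(TPM + 1), a replicate block and leaving out each hairpin library were alternatives. The scripts were tested on simulated data.

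The members and lists were chosen with earlier results of these data known. Given in full by rule were ATF4, DDIT3, TRIB3, ASNS and members at least 1.5-fold from the control in the same direction with both hairpins at a mean of 1 CPM or more; between lines, up to 8 members per direction past 4-fold with an adjusted p under 0.05; and of other lists CHAC1, SESN2, SLC7A11, SLC3A2 and genes at least 2-fold with both hairpins, of which 1 is not reported here. Promoter windows are from RefSeq (GRCh38.p14).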

Additional observations from a re-analysis of the deposited data

Results flagged for a closer look

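In 3 of 41 measured members both hairpins lay on one side of the control in PA-1 and on the other side in TOV21G. The share of all genes that did so was not counted, so this number is not read as an excess. VLDLR was higher in PA-1 and lower in TOV21G, and the difference of the effects, TOV21G minus PA-1, was -1.89 on the log2 scale (SE 0.52, edgeR unadjusted p = 0.0141, adjusted p = 1). AARS1 was likewise higher in PA-1 and lower in TOV21G, with a difference of -0.49 (SE 0.36, edgeR unadjusted p = 0.229, adjusted p = 1). CEBPG was lower in PA-1 and higher in TOV21G, with a difference of 0.16 (SE 0.34, edgeR unadjusted p = 0.647, adjusted p = 1). None of the 3 differences passed the edgeR test over all genes.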

How the results depend on the processing

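With 1 control per line, 2 hairpins that are different reagents and 2 residual degrees of freedom, few calls could be made, and genes of few counts such as NUPR1 were limited by depth. Of 244 values of single genes under the alternatives, 228 kept their direction and side of the threshold, 12 newly passed it and 4 changed sign. Over the libraries left out, the log2 fold change in PA-1 ran from -0.26 to 0.049 for ASNS and from -0.13 to 0.002 for DDIT3, with the upper ends without PA-1 hairpin 1. In TOV21G it ran from -1.217 to 0.412 for ASNS, lowest without hairpin 1 and highest without hairpin 2, and from -0.374 to 0.42 for TRIB3, the other way round.

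DESeq2 called 36 genes in PA-1, 226 in TOV21G, 133 in the mean, 19 in the difference between lines, and 1 member in TOV21G, where edgeR called 0. With the hairpin number as a replicate block, edgeR called 13 genes in PA-1, 36 in TOV21G and 22 in the mean, and 0 members, and of the single genes only TXNIP in TOV21G newly passed (adjusted p = 0.0325). The number is the hairpin and was not shown to mark a shared culture: hairpin 2 minus hairpin 1 correlated at 0.236 between lines across 16855 genes and at 0.386 across those at 5 CPM or more. Leaving out 1 hairpin library gave 0 to 1489 genes and 0 to 7 members in TOV21G, 0 to 526 genes and 0 to 3 members in the mean, and 3850 to 9946 genes and 5 to 29 members between lines.

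Of 60 alternative group medians 55 moved by less than the spread between hairpins. In PA-1 the synthetase median of 0.018 became 0.004 with RLE scaling, 0.065 with log2(TPM + 1) and 0.017 without the filter, and the stress factor median of -0.08 became -0.045 with log2(TPM + 1). The TOV21G transport median of -0.17 became -0.069 with log2(TPM + 1), where both hairpins put 2 members past 1.5-fold upward and 1 downward. For the PA-1 synthetases the medians of both hairpins were 0.05, so even the move from 0.018 to 0.017 passed the spread between hairpins. The cause of the changes in the medians was not tested. No scaling moved the median of all genes by over 0.1.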

Other observations

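Among the genes of eIF2 machinery, EIF2S2 (the beta subunit of eIF2) and EIF2AK4 (GCN2) were chosen after their values were seen. EIF2S2 was at 178 CPM in the PA-1 control, 87.1 CPM with hairpin 1 and 218 CPM with hairpin 2, and at 203 CPM, 63.8 CPM and 184 CPM in TOV21G. It was lowest with hairpin 1 in both lines. EIF2AK4 was at 93.4 CPM, 84.2 CPM and 140 CPM in PA-1 and at 149 CPM, 68.1 CPM and 316 CPM in TOV21G. It was lowest with hairpin 1 and highest with hairpin 2 in both lines, so the hairpins lay on opposite sides of the control.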
